A study of Mus musculus with 9 samples.

Results

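RNA from 6 light-exposed libraries of HC11 cells was compared with RNA from 3 untreated libraries, across 14471 tested genes and with a culture state as a covariate. All 9 libraries of the series entered the comparison: 3 of the exposed ones are labelled EpPT1, 3 EpPT2, and the untreated ones Ctrl. The state of a library was chosen by a measured value, its mitochondrial share: it was high where more than 5% of its counts lay on mitochondrial chromosome genes (Ctrl 3, EpPT1 3, EpPT2 2 and EpPT2 3) and low in the other 5 libraries. HC11 is an established mouse mammary epithelial line, labelled with the strain C57BL/6, and all groups were grown in the same serum-containing medium without a stated hormone. Light of 660 nm was given to cells in a multiwell dish. EpPT1 is labelled 10 J/cm2 and EpPT2 20 J/cm2, while the protocol names 10 mW with 0.5 and 1 J/cm2, so no dose is used here. The light source is called both a laser and an LED in the sources. Neither the delay before lysis nor separate cultures for the libraries of a group are stated in the sources, so a p-value here reflects the spread among the libraries as deposited, and that spread may be technical.

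Red and near-infrared light is absorbed in cells mainly by haem and copper centres, and cytochrome c oxidase of the mitochondrial respiratory chain is the acceptor named most often for it. Cells that meet light, oxidants or other stress switch on immediate early transcription factors through MAP kinases, haem oxygenase and other antioxidant genes through NRF2, and amino acid and folding genes through ATF4 and the unfolded protein response. The gene groups below follow these routes and the growth, secretion and epithelial functions of mammary cells.

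The libraries held 14549787 to 17228929 counts each, and 28724 of the 54532 genes in the table had a count. Mitochondrial chromosome genes took 2.86%, 3.62% and 7.48% of the counts of the Ctrl libraries, 3.44%, 2.74% and 6.93% of those of EpPT1, and 3.38%, 6.06% and 6.94% of those of EpPT2. The libraries nearest to the threshold were therefore Ctrl 2 at 3.62% and EpPT2 2 at 6.06%. The state is a division of the libraries by their own readout and not a group of the study, so mitochondrial genes are described below without a test, and only Ctrl 3 stands for untreated cells in the high state. Libraries also resembled each other across the labels. Chi-square per gene between 2 libraries was 40.7 to 217 in 31 of the 36 library pairs. It was only 5.10 to 9.59 in 4 pairs: EpPT1 2 with EpPT2 1 in the low state, and EpPT1 3, EpPT2 2 and EpPT2 3 with each other in the high state. EpPT1 1 stood nearest to an untreated library, Ctrl 2, at 15.9. No pair was alike within sampling noise, which would give about 1. Expression also ran with base composition: the slope of log2 expression on transcript GC content, per 10 percentage points and against the mean library, was −0.49, −0.22 and −0.23 in Ctrl and −0.35 in EpPT1 1, but 0.18 to 0.37 in the other 5 exposed libraries. The number of called genes is therefore given with and without EpPT1 1, and with this GC trend removed. The same is done for part of the genes and lists, and the others are given only as measured.

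Luminal keratins were present throughout, with Krt8 at 568 to 868 CPM, but the epithelial cadherin Cdh1 reached at most 0.76 CPM and the luminal factor Elf5 at most 0.07 CPM (unscaled CPM, a library's counts scaled to a common total). Of the other cell types looked for, the fibroblast list summed to 1321 to 2972 CPM in Ctrl and 772 to 2109 CPM in exposed libraries, almost all of it Dcn. Pdgfra had 46 to 118 counts by library and Col1a1 10 to 59. The other fibroblast markers had at most 7, with Thy1 at 0 counts in every library. The blood and immune list summed to 12.4 to 95.7 and 15.3 to 100 CPM, most of it Cd68. Csf1r had 33 to 56 counts by library and the other members at most 13, with Adgre1 at 0 counts. Basal markers summed to 4.79 to 18.6 CPM in Ctrl and 7.37 to 23.9 CPM in exposed libraries, endothelial markers to 4.73 to 18.7 and 3.23 to 20.5 CPM. The fat cell list, carried by Lpl, summed to 283 to 387 and 246 to 420 CPM. The ranges of Ctrl and exposed libraries overlapped for all 6 lists, and the part of other cells in the results was not tested. In bulk RNA, fewer cells of a type and less RNA per cell cannot be told apart.

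With the state adjusted, 1 of 14471 genes (0.00691%) passed the test for a difference between exposed and untreated libraries at an adjusted p under 0.05 (edgeR's quasi-likelihood test with Benjamini-Hochberg adjustment). That gene, Psd, was higher in the exposed libraries, and no gene passed as lower. Short of that threshold the differences were many: 3752 genes (25.9%) had an unadjusted p under 0.05, 1963 of them higher (13.6%) and 1789 lower (12.4%), and 1162 had an adjusted p under 0.1. Every exposed library lay above every Ctrl library of its own state for 793 genes (5.48%) and below for 801 (5.54%). The median log2 difference over all tested genes was −0.02, and 7014 (48.5%) lay above 0. The typical standard error of a log2 difference was 0.20, so that 2 standard errors corresponded to 1.32-fold. The count of called genes turned on single libraries. Without EpPT1 1 it was 4559 (2297 higher, 16.0%, and 2262 lower, 15.8%), without Ctrl 2 it was 1179, and without any of the other 7 libraries it was 0. In the fit without EpPT1 1, the exposed libraries left are those of the alike pairs, each counted as a separate library. Limma-voom called 0 genes and DESeq2 1377. With the GC trend removed edgeR called 0, with 7.50% of genes higher and 8.33% lower by unadjusted p (2290 genes). With the alike exposed libraries of each state summed, an alternative chosen after seeing the data, 0 of 13828 tested genes were called. In that fit of fewer libraries 853 of the 13828 had an unadjusted p under 0.05, against 3752 of 14471 with the libraries kept apart.

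**Figure D1:**
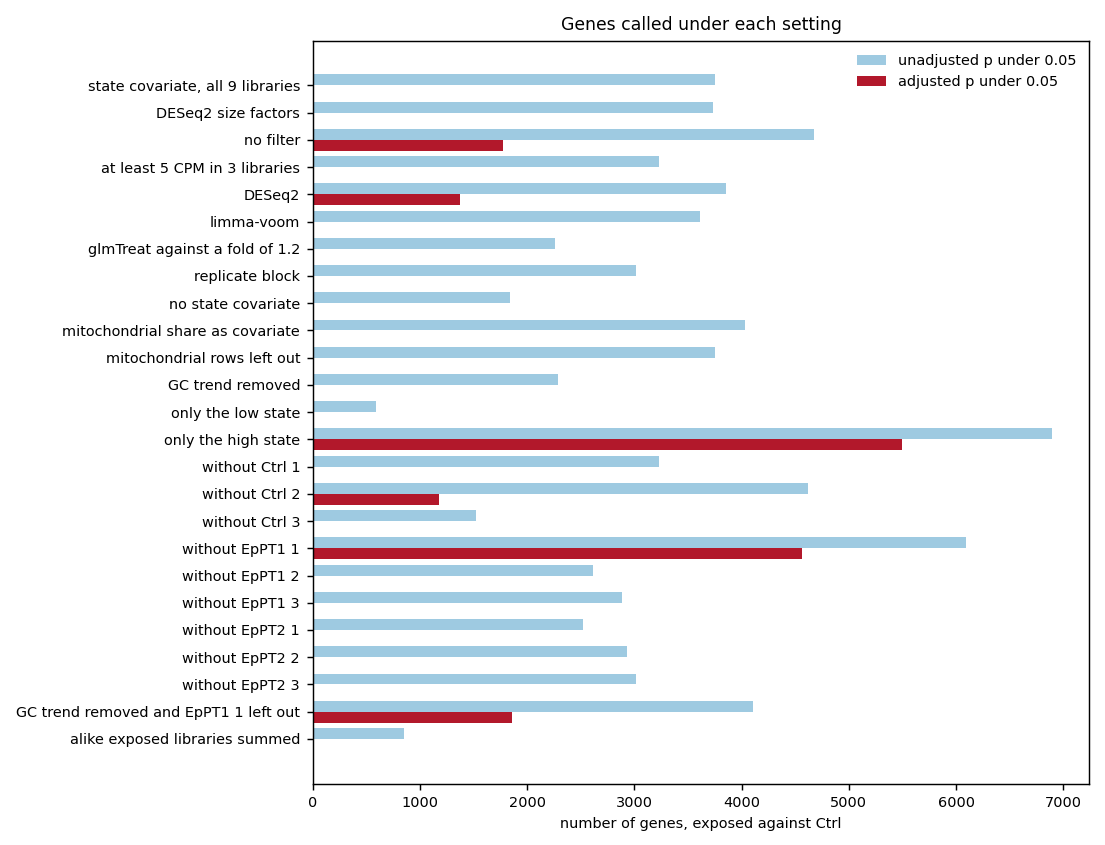
Number of genes (x axis) that differed between exposed and Ctrl libraries under each setting (y axis), at an unadjusted p under 0.05 (light bars) and an adjusted p under 0.05 (dark bars). The dark bar reaches 4559 genes without EpPT1 1 and 5496 in the high state, where Ctrl 3 is the only untreated library, and is at 0 or 1 for most other settings.

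Psd encodes a guanine nucleotide exchange factor for the small GTPase Arf6, which acts in membrane traffic and the cortical actin cytoskeleton. Its level (ENSMUSG00000037126, chromosome 19, 46312087 to 46327156, GRCm38) was 12.8, 11.1 and 38.4 CPM in Ctrl, 24.6, 33.1 and 85.5 CPM in EpPT1 and 32.8, 75.5 and 81.5 CPM in EpPT2 (TMM-scaled, as are all CPM values from here on). In each state, every exposed library was above the untreated ones, as the rule for naming the leading genes of both directions required. Psd rose by 1.23 ± 0.15 on the log2 scale (difference ± SE, 6 against 3 libraries, adjusted p = 0.0485 by edgeR's quasi-likelihood test). The call was lost under 16 of 24 alternative settings, among them limma-voom (adjusted p = 0.0883) and the GC trend removed, where the difference was 0.56 ± 0.17. Of its 7636 exonic bases, 299 (3.92%) are shared with Nfkb2 on the opposite strand, and without the authors' strand setting reads there cannot be assigned to one gene. Nfkb2, a precursor subunit of NF-kappaB, was itself higher by 0.70 ± 0.17, or by 0.15 ± 0.09 with the GC trend removed.

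None of the other 7 genes that led the higher direction passed the test (adjusted p = 0.0880 for each by edgeR's quasi-likelihood test). Setd1a, a histone H3 lysine 4 methyltransferase (chromosome 7, 127776670 to 127800122), had 16.7, 19.02 and 43.3 CPM in Ctrl, 28.7, 38.5 and 88.8 CPM in EpPT1 and 38.9, 81.8 and 82.7 CPM in EpPT2, a difference of 0.98 ± 0.14. As for Psd, the high-state libraries had the higher values in every group. Dusp3, a phosphatase that acts on ERK and JNK, had 57.8, 62.4 and 65.8 CPM in Ctrl against 85.6, 95.1 and 122.6 CPM in EpPT1 and 92.0, 124.4 and 110.0 CPM in EpPT2, so that all 6 exposed libraries were above all 3 untreated ones. Its difference was 0.69 ± 0.12, and 0.70 ± 0.11 with the GC trend removed. Pkmyt1, which holds Cdk1 inactive before mitosis, had 21.5 to 26.7 CPM in Ctrl and 27.8 CPM in EpPT1 1, but 60.2 to 98.0 CPM in the other 5 exposed libraries (1.40 ± 0.25). The zinc finger gene Zfp628 (1.36 ± 0.25) and Armc5, a substrate adaptor of a Cul3 ubiquitin ligase (1.2 ± 0.22), had the same shape: EpPT1 1 lay at 13.7 and 14.3 CPM, close to the Ctrl ranges of 8.48 to 10.6 and 10.3 to 13.1 CPM, and the other exposed libraries at 25.3 to 31.5 and 27.2 to 32.7 CPM. Mepce, the capping enzyme of the small nuclear RNA that restrains transcription elongation, was higher by 0.71 ± 0.12, and Ogfod2, a predicted iron-dependent oxygenase, by 0.93 ± 0.16. Removing the GC trend left 0.58 ± 0.10 of the Setd1a difference and 0.18 ± 0.14 of the Mepce difference. Armc5 and Pkmyt1 share 17.9% and 8.76% of their exonic bases with tested genes on the opposite strand.

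The 8 genes that led the lower direction include 3 KRAB-type zinc finger genes, and none passed the test (adjusted p = 0.0880 for each by edgeR's quasi-likelihood test). Trp53inp1, a p53-inducible gene of stress-induced autophagy and cell death (chromosome 4, 11156431 to 11174379), had 130.4, 110.4 and 109.3 CPM in Ctrl, 72.9, 90.3 and 50.05 CPM in EpPT1 and 69.9, 57.0 and 53.1 CPM in EpPT2. No exposed library reached an untreated one, and the difference was −0.79 ± 0.13. Zfp53 (−0.98 ± 0.17) and the nearby Zfp52 (−1.12 ± 0.21), both on chromosome 17, had 21.2 to 32.7 and 17.7 to 25.1 CPM in Ctrl and 8.58 to 19.6 and 7.92 to 14.9 CPM in the exposed libraries, again without overlap. Zfp942, on the same chromosome, was lower by −0.81 ± 0.17 on the log2 scale. Such zinc finger genes are close relatives of each other, so reads may have been shared between them in the authors' counting. Slc33a1, the acetyl-CoA transporter of the endoplasmic reticulum, was at 35.9 to 56.0 CPM in Ctrl and within 27.7 to 32.4 CPM in all exposed libraries (−0.70 ± 0.14). Cep170, a protein of the mother centriole's appendages, was at 123 to 172 CPM in Ctrl and 70.1 to 102 CPM after exposure (−0.78 ± 0.16). The Cep170 difference was −0.45 in the low state and −1.23 in the high state, where Ctrl 3 had 172 CPM. Pcmtd1, a relative of protein repair methyltransferases, differed by −0.77 ± 0.15 and the phospholipid-binding copine Cpne3 by −0.77 ± 0.15. Without EpPT1 1, all 16 leading genes were called (adjusted p of 7.7e-05 to 0.00272 by edgeR's quasi-likelihood test). In that fit 16.0% of all genes were called higher and 15.8% lower, and the alike exposed libraries counted as separate ones. The leading genes were chosen by their p in the same libraries, so these calls are not separate support. EpPT1 1 was the highest exposed library for Zfp53, Zfp52, Pcmtd1, Cpne3, Cep170 and Zfp942.

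**Figure D2:**
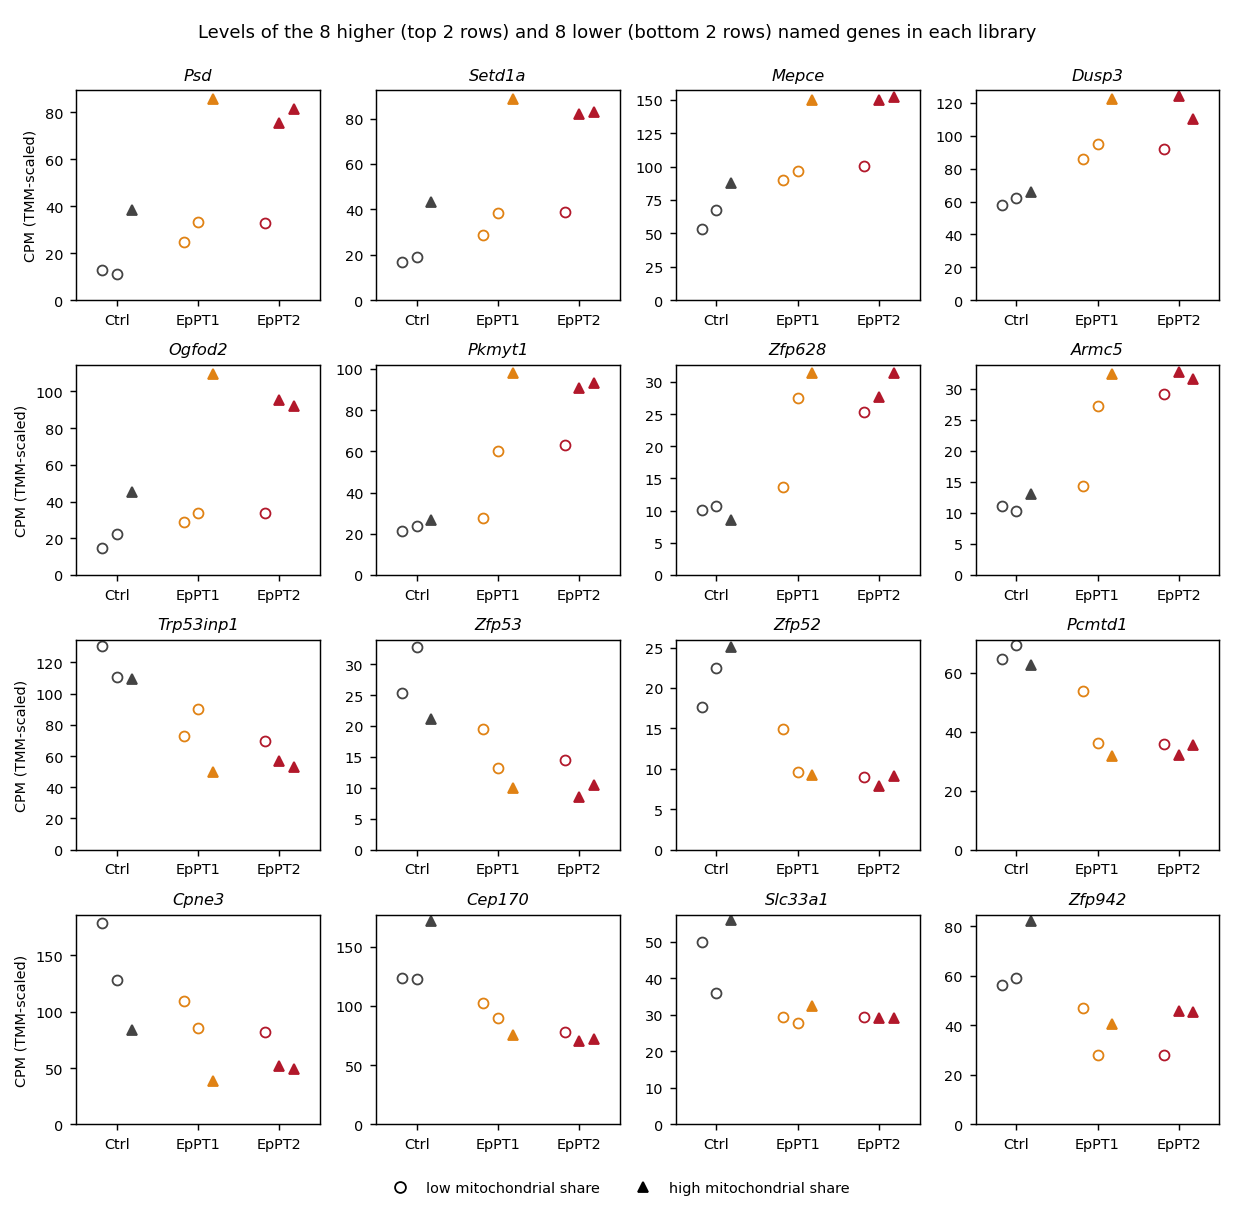
CPM (y axis, TMM-scaled, linear from 0) of the 8 leading higher and 8 leading lower genes in each of the 9 libraries (x axis, by group; open circles low, filled triangles high mitochondrial share). Dusp3 and Trp53inp1 separate exposed from Ctrl libraries whatever the state, whereas for Zfp628 and Armc5 EpPT1 1, the leftmost EpPT1 point, lies near the Ctrl libraries.

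The direction of a gene followed its base composition. Across 14458 genes the Spearman correlation of the log2 difference with transcript GC content was 0.62, given as a description since genes are not independent replicates. It was 0.56 with the GC content at the third codon position (11967 genes), 0.03 with that of the promoter (10034 genes with a RefSeq promoter) and −0.16 with gene length. In the tenth of genes lowest in GC content the median difference was −0.38, with 39.2% of genes lower and 1.52% higher at an unadjusted p under 0.05. In the tenth highest in GC content it was 0.56, with 48.1% higher and 0.415% lower. Both states showed the slope on their own, with medians from −0.30 to 0.48 in the low state and from −0.46 to 0.73 in the high state. Transcripts of the 8 leading higher genes had 49.3% to 63.5% GC, with Dusp3 the lowest of them, and those of the 8 leading lower genes 37.4% to 44.7%. The first 120 coding bases of the 2 leading genes of each direction, from GENCODE M21 transcripts (GRCm38), show this composition, with G and C in capitals:
Psd: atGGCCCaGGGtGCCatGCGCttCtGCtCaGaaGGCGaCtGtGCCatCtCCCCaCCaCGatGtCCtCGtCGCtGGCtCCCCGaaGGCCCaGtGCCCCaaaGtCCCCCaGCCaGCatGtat
Setd1a: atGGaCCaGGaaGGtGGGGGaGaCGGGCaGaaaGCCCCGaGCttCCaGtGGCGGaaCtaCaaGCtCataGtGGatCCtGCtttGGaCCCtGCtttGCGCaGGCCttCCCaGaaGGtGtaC
Trp53inp1: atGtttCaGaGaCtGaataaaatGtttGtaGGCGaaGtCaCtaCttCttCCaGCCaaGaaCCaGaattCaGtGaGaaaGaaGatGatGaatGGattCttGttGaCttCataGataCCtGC
Zfp53: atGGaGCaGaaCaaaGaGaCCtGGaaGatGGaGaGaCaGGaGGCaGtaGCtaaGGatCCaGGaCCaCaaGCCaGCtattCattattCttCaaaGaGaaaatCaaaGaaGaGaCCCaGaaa
G and C made up 77 and 71 of the 120 bases in Psd and Setd1a, and 46 and 53 in Trp53inp1 and Zfp53. Over the whole coding sequence, the third codon position was G or C in 64.8% and 54.7% of codons in Psd and Setd1a, and in 45.6% and 35.3% in Trp53inp1 and Zfp53. The part of base composition in any single difference was not tested. The paragraphs on gene lists give part of the medians also with the trend removed, and the other medians only as measured. With the trend removed, the correlation with transcript GC content was 0.02 and the median over all genes −0.03.

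**Figure D3:**
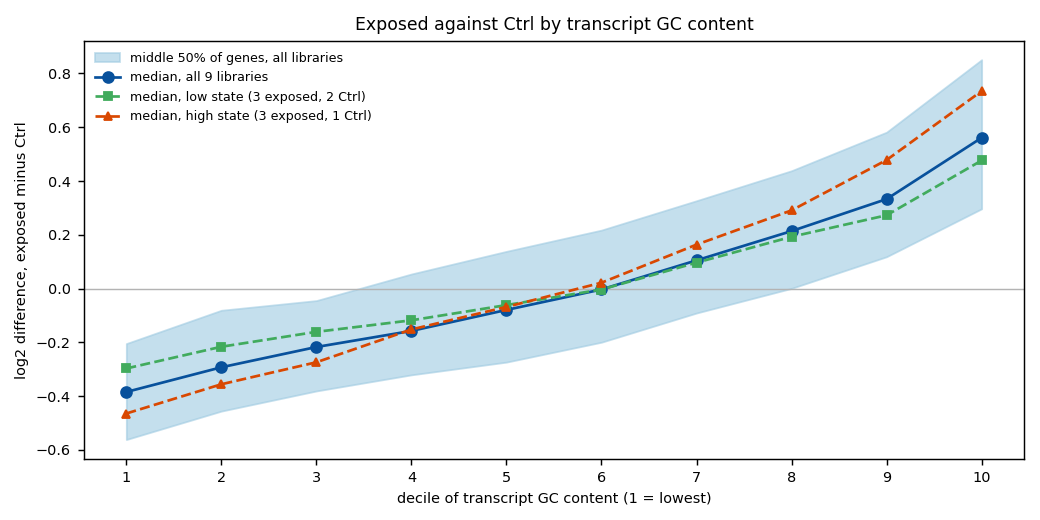
Median log2 difference, exposed minus Ctrl (y axis), in the 10 deciles of transcript GC content (x axis, 1 lowest), for all 9 libraries (solid line, with the middle 50% of genes shaded) and for each state alone (dashed lines). The median climbs from −0.38 to 0.56, and the dashed lines of both states climb too.

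Immediate early genes, the transcription factors and regulators switched on within minutes of a stimulus, had the highest median of the 37 pathway lists, at 0.60 on the log2 scale. Of 27 tested members 22 lay above 0, and 11 were higher and 0 lower at an unadjusted p under 0.05 (40.7% higher, against 13.6% of all genes). None passed the adjusted test. The AP-1 subunit Jund had 24.6, 47.2 and 65.6 CPM in Ctrl, 31.0, 161 and 149 CPM in EpPT1 and 153, 173 and 158 CPM in EpPT2. Its difference was 1.52 ± 0.42 (0.36 ± 0.21 with the GC trend removed), with EpPT1 1 inside the range of the Ctrl libraries. Klf4, a zinc finger factor of epithelial differentiation, was higher by 0.77 ± 0.22, with the exposed libraries above Ctrl in each state. Fos, the classical member, had 47.8, 20.0 and 161 CPM in Ctrl and 7.39 to 298 CPM after exposure, and its 0.60 ± 0.52 was within the spread of the libraries, as was the 0.49 ± 0.24 of Egr1. The list's median was 0.97 in the low state and 0.23 in the high state, 0.71 without EpPT1 1, and 0.18 with the GC trend removed. With that trend removed, 2 of the 27 members were higher at an unadjusted p under 0.05, a share near the 7.50% of all genes. With single libraries left out the list's median ran from 0.35 without EpPT1 2 to 0.95 without Ctrl 3. Among the 17 genes of ERK feedback, 3 were higher and 2 lower, against 13.6% and 12.4% of all genes, with the phosphatase Dusp8 at 1.27 ± 0.24 and the inhibitor Spred1 at −0.51 ± 0.12. Their median of 0.29 was −0.05 with the trend removed.

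Haem oxygenase Hmox1, which breaks down haem and is the standard NRF2 target, had 105, 72.2 and 431 CPM in Ctrl, 253, 311 and 638 CPM in EpPT1 and 292, 518 and 540 CPM in EpPT2. Exposed libraries lay above Ctrl in each state, but the low-state ones did not reach Ctrl 3. The difference was 1.14 ± 0.25 (adjusted p = 0.0880 by edgeR's quasi-likelihood test), 1.70 within the low state and 0.40 within the high state, and 0.93 ± 0.25 with the GC trend removed. Of the 32 tested NRF2 and antioxidant genes 7 were higher (21.9%, against 13.6% of all genes) and 1 lower (3.12%, against 12.4%) at an unadjusted p under 0.05, with a median of 0.06, against −0.02 for all genes. That median was 0.024 without Ctrl 2 and 0.21 without Ctrl 3. Pgd, an NADPH-producing enzyme of the pentose phosphate pathway, had 108.6 to 132.3 CPM in Ctrl and 141 to 183 CPM in every exposed library (0.49 ± 0.13, and 0.54 ± 0.13 with the trend removed). The groups of Pgd did not overlap.

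The ATF4 list of amino acid supply and stress genes had 10 of 24 members higher (41.7%, against 13.6% of all genes) and 0 lower (against 12.4%) at an unadjusted p under 0.05, with a median of 0.22, of 0.14 with the GC trend removed and of 0.49 without Ctrl 2. Atf4 itself, the stress-induced transcription factor, had 109, 100 and 227 CPM in Ctrl, 149, 289 and 319 CPM in EpPT1 and 288, 349 and 338 CPM in EpPT2, a difference of 0.95 ± 0.22. Its exposed libraries were above Ctrl in each state, with EpPT1 1 the lowest. Slc3a2, the heavy chain of the amino acid exchangers, was higher by 0.56 ± 0.13. Most chaperones of the endoplasmic reticulum lay below 0. Of 25 folding and unfolded protein response genes 5 lay above 0, with 4 lower (16.0%), 1 higher (4.0%) and a median of −0.21 (−0.15 with the trend removed). The median of these folding genes was −0.08 in the low state and −0.31 in the high state, −0.32 without EpPT1 1, −0.14 without Ctrl 2 and −0.094 without Ctrl 3. Hspa5, the luminal chaperone BiP, had 827, 689 and 4223 CPM in Ctrl, 808, 690 and 1592 CPM in EpPT1 and 643, 1524 and 1523 CPM in EpPT2. Ctrl 3 thus stood far above all others, and the Hspa5 difference was −0.08 in the low state, −1.44 in the high state and −0.67 ± 0.22 in all, or −0.09 without Ctrl 3, where the comparison rests on the low state alone. Dnajb9, its co-chaperone, likewise had 239 CPM in Ctrl 3 and 25.3 to 69.7 CPM in the other libraries (−0.90 ± 0.29, and −0.14 without Ctrl 3). Of the 20 cytosolic heat shock genes 2 were higher and 3 lower, with a median of −0.15, and Hsp90aa1, the inducible form of the Hsp90 chaperone, at −0.57 ± 0.19.

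COPI and COPII coat genes, which build the vesicles that carry cargo between the endoplasmic reticulum and the Golgi apparatus, had the lowest share above 0 of the pathway lists with over 10 tested members. Of 26 members 3 lay above 0, 0 were higher and 11 lower at an unadjusted p under 0.05 (42.3%, against 12.4% of all genes), with a median of −0.28. Sec23a, the inner coat subunit of COPII (chromosome 12, 58958383 to 59012017), had 91.9, 57.9 and 172.6 CPM in Ctrl, against 55.3, 51.4 and 48.2 CPM in EpPT1 and 50.6, 49.7 and 47.9 CPM in EpPT2. No exposed library reached an untreated one, and the exposed values lay within 47.9 to 55.3 CPM. The Sec23a difference was −1.07 ± 0.23 (adjusted p = 0.0880 by edgeR's quasi-likelihood test), or −0.52 without Ctrl 3, which leaves the low state alone to carry the comparison. Sec24a, its cargo-binding partner, had 93.4, 86.8 and 393 CPM in Ctrl, 96.1, 51.6 and 112 CPM in EpPT1 and 53.6, 116 and 107 CPM in EpPT2 (−1.02 ± 0.26, and −0.42 without Ctrl 3). The list's median was −0.12 in the low state, −0.44 in the high state and −0.13 (without Ctrl 3) to −0.38 (without EpPT1 1) with single libraries left out. It was −0.27 with the GC trend removed. Without EpPT1 1, 16 of the 26 genes were called lower and 0 higher, against 15.8% and 16.0% of all genes. That fit counts the alike exposed libraries as separate ones.

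**Figure D4:**
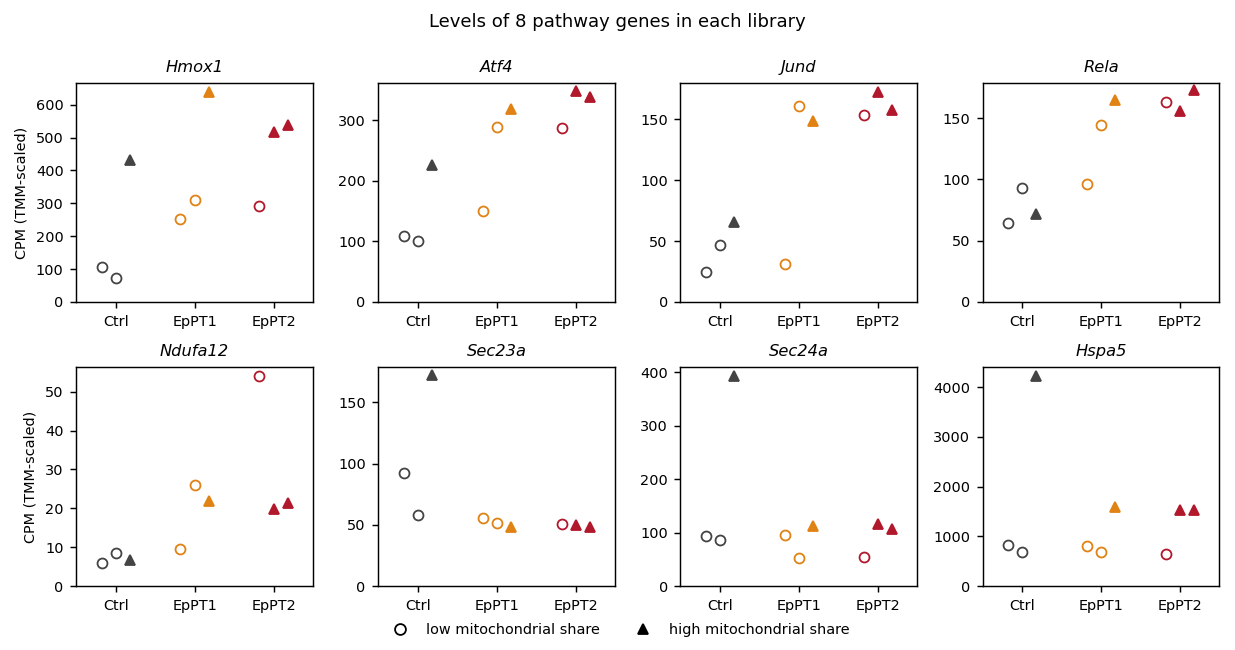
CPM (y axis, TMM-scaled, linear from 0) of 8 pathway genes in each library (x axis, by group; open circles low, filled triangles high mitochondrial share). For Sec24a and Hspa5 Ctrl 3 stands above all other libraries, at 393 and 4223 CPM, and for Jund and Rela EpPT1 1 lies near the Ctrl libraries.

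Of 37 nuclear-encoded complex I subunits of the respiratory chain 27 lay above 0 (against 48.5% of all genes), and 11 were higher (29.7%) and 1 lower (2.7%) at an unadjusted p under 0.05, against 13.6% and 12.4% of all genes, with a median of 0.14 (0.16 with the GC trend removed). The subunit Ndufa12 had 6.02, 8.49 and 6.61 CPM in Ctrl, 9.46, 25.9 and 21.9 CPM in EpPT1 and 54.0, 19.7 and 21.2 CPM in EpPT2. All exposed libraries were above all untreated ones, with EpPT2 1 standing out, and the difference was 1.90 ± 0.43 (1.79 ± 0.41 with the trend removed). Ndufa3 was higher by 0.86 ± 0.23. Cytochrome c oxidase, the acceptor named for red light, had 9 of its 30 nuclear subunit and assembly genes higher and 3 lower (30.0% and 10.0%, median 0.15, from 0.043 without Ctrl 1 to 0.25 without Ctrl 2), with Cox6b1 at 0.66 ± 0.19 and the assembly enzyme Cox10 at 0.71 ± 0.20. Its subunit Cox4i1 had 514 to 687 CPM in Ctrl and 535 to 634 CPM after exposure, a difference of −0.06 ± 0.12. Of 16 ATP synthase genes 5 were higher and 4 lower, and the 2 with the lowest p were Atp5d (0.96 ± 0.26) and Atp5g2 (1.03 ± 0.29). The Atp5g2 difference was 0.17 ± 0.13 with the GC trend removed. Mitochondrial ribosomal proteins had 22 of 77 members higher and 4 lower (28.6% and 5.19%, median 0.12, and 0.08 with the trend removed or without Ctrl 1), with Mrpl12 at 0.74 ± 0.17 and Mrpl54 at 0.74 ± 0.17. With the trend removed, Mrpl12 was at 0.39 ± 0.11 and Mrpl54 at 0.14 ± 0.13.

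Genes of the mitochondrial chromosome set the state and are given as a description. The cytochrome c oxidase subunit mt-Co1 carried the largest part of the share, with 15858, 20866 and 62314 CPM in Ctrl, 20903, 11932 and 43302 CPM in EpPT1 and 15111, 39196 and 46130 CPM in EpPT2. After the state was taken out, mt-Co1 differed by −0.33 ± 0.17 on the log2 scale. The cytochrome b gene mt-Cytb had 2269, 2595 and 2063 CPM in Ctrl, 2446, 3479 and 4704 CPM in EpPT1 and 4206, 3823 and 4712 CPM in EpPT2 (0.70 ± 0.19), with Ctrl 3 the lowest of the untreated libraries. The complex I subunit mt-Nd1 was higher by 0.42 ± 0.15, and the ribosomal RNA gene mt-Rnr2 lower by −0.54 ± 0.26. The median of the 15 mitochondrial genes was −0.07, or 0.34 with the GC trend removed, since they are poor in GC.

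Of 34 tested ribosome biogenesis factors 14 were higher and 0 lower at an unadjusted p under 0.05 (41.2% higher, against 13.6% of all genes), with a median of 0.18. With the GC trend removed the median was 0.13, and 6 of the 34 were higher and 0 lower, against 7.50% and 8.33% of all genes. Without Ctrl 2 the median was 0.07, the lowest with a single library left out. Rrp9, a protein of the U3 small nucleolar ribonucleoprotein, had 25.8, 17.6 and 11.7 CPM in Ctrl, 22.1, 71.0 and 28.7 CPM in EpPT1 and 78.2, 27.4 and 27.7 CPM in EpPT2. Its difference was 1.34 ± 0.33, with EpPT1 1 again between the low-state Ctrl libraries. Nhp2, a core protein of H/ACA particles, had a smaller but tighter difference of 0.43 ± 0.12. Among the 20 genes of RNA polymerase I and its factors, 3 were higher and 2 lower, with the initiation factor subunit Taf1c at 4.96 to 6.51 CPM in Ctrl and 7.62 to 22.7 CPM after exposure (1.48 ± 0.29). The groups of Taf1c did not overlap. Small nucleolar RNA host genes had 11 of 14 members above 0, 6 higher (42.9%) and 1 lower, and a median of 0.27 (0.30 with the trend removed, and 0.18 without EpPT1 1), with Snhg12 at 0.71 ± 0.18 and Epb41l4aos at 0.82 ± 0.19. Cytosolic ribosomal protein genes had 17 of 78 higher and 17 lower (21.8% each) and a median of 0.07 (−0.04 with the trend removed). Their reads can be shared with many processed copies, so single members are not named.

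Of 35 DNA replication and G1/S genes 7 were higher and 1 lower at an unadjusted p under 0.05 (20.0% and 2.86%, against 13.6% and 12.4% of all genes, median 0.09), with the replicative polymerase Pold1 at 0.79 ± 0.22 and the factor E2f1 at 0.61 ± 0.20. With the GC trend removed, Pold1 was at 0.12 ± 0.12 and E2f1 at 0.16 ± 0.15. Of 36 G2/M and mitosis genes 2 were higher and 7 lower (5.56% and 19.4%, median −0.14, and 0.00 with the GC trend removed). The kinetochore gene Ndc80 had 84.0 to 94.0 CPM in Ctrl and 89.7 CPM in EpPT1 1, but 44.4 to 54.4 CPM in the other 5 exposed libraries (−0.59 ± 0.18). The mitotic kinase Plk1 was higher by 0.61 ± 0.16. Mki67, the proliferation marker, had 668 to 947 CPM in Ctrl and 567 to 1363 CPM after exposure and differed by 0.10 ± 0.17. Among 35 p53 targets and apoptosis regulators 8 were higher and 9 lower (22.9% and 25.7%), with the stress kinase Plk3 at 1.01 ± 0.23 beside the lower Trp53inp1. Cdkn1a, the cell cycle inhibitor p21, was at 0.12 ± 0.19 and was below 0 with the GC trend removed. The circadian list of 21 genes had 4 higher and 2 lower and a median of −0.08. Its light-responsive and stress-responsive member Per1 had 14.1 to 16.7 CPM in Ctrl and 15.5 CPM in EpPT1 1, against 23.8 to 42.1 CPM in the other 5 (0.98 ± 0.28, adjusted p = 0.0884 by edgeR's quasi-likelihood test). The Per1 difference was 0.38 ± 0.18 with the GC trend removed. Of the opsins, the light-sensing receptors, 2 were abundant enough to test, and Opn3 differed by 0.03 ± 0.34 and Opn1sw by −0.86 ± 0.42. Both were scarce, with means of 2.91 CPM for Opn3 and 1.02 CPM for Opn1sw. Opn3 shares 24.1% of its exonic bases with Chml on the same strand, and Opn1sw 15.5% with Calu on the opposite strand.

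Among signalling genes the NF-kappaB list had 6 of 26 members higher and 3 lower (23.1% and 11.5%, against 13.6% and 12.4% of all genes). The list's median was −0.02, or 0.08 with the GC trend removed. Rela, its main activating subunit, had 64.5, 92.6 and 71.7 CPM in Ctrl, 96.0, 144 and 165 CPM in EpPT1 and 163, 156 and 173 CPM in EpPT2. All exposed libraries were above Ctrl, EpPT1 1 by the least, and the difference was 0.93 ± 0.19 (0.39 ± 0.11 with the GC trend removed). Of 26 interferon response genes 1 was higher, Ifitm2 at 0.65 ± 0.17, and 2 lower, with the RNA sensor Ddx58 at −0.44 ± 0.14. The TGF-beta list had 4 of 23 higher and 1 lower (median 0.21, but 0.12 without EpPT2 1, 0.14 without Ctrl 3 and −0.06 with the trend removed), with the ligand Tgfb1 at 0.51 ± 0.18. Of 16 genes of the EGF receptor family 2 were higher and 4 lower, with the receptor Erbb3 at −0.49 ± 0.15 and the Ras activator Sos1 at −0.51 ± 0.16.

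Lactogenic genes held 2 higher and 3 lower of 12 tested (against 13.6% and 12.4% of all genes), with a median of 0.00, and the main casein gene Csn2 was not abundant enough to test. Among them the glucocorticoid receptor Nr3c1, which HC11 cells need for milk protein expression, had 330, 288 and 312 CPM in Ctrl, 259, 226 and 212 CPM in EpPT1 and 200, 220 and 224 CPM in EpPT2. These groups did not overlap, and the difference was −0.47 ± 0.12 (−0.21 ± 0.09 with the GC trend removed). Jak2, the kinase of the prolactin receptor, was lower by −0.62 ± 0.18 on the log2 scale. Epithelial junction genes had 2 of 25 higher and 3 lower (median −0.10, and −0.26 with the GC trend removed). The 2 with the lowest p, the polarity gene Crb3 (1.40 ± 0.32) and the claudin Cldn3 (0.97 ± 0.27), were both higher. With the GC trend removed, Crb3 was at 0.92 ± 0.22 and Cldn3 at 0.26 ± 0.18. Cldn3 had 79.4, 176 and 214 CPM in Ctrl, 148, 221 and 617 CPM in EpPT1 and 250, 576 and 562 CPM in EpPT2, so that EpPT1 1 lay among the Ctrl libraries. The keratin Krt8 had 559 to 836 CPM in Ctrl and 612 to 775 CPM after exposure, with a difference of −0.00 ± 0.14.

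Matrix genes had 6 of 28 members higher (21.4%, against 13.6% of all genes) and 0 lower (against 12.4%), with a median of 0.15 that was 0.36 without Ctrl 2 and −0.09 with the GC trend removed, with the collagen Col16a1 at 0.84 ± 0.29. The Col16a1 difference was 0.16 ± 0.18 with that trend removed. Metalloproteinases and their inhibitors had 5 of 14 higher (35.7%) and 1 lower, and a median of 0.35 that was 0.13 in the low and 0.78 in the high state, and 0.12 without Ctrl 3. Their median was 0.11 with the GC trend removed, and their leading member Mmp11, a stromelysin, was higher by 0.96 ± 0.27. Of 33 lysosomal genes 9 were higher and 1 lower (27.3% and 3.03%, median 0.10, and −0.01 with the trend removed). Single libraries left out put this median between 0.024 (without EpPT1 1) and 0.31 (without Ctrl 2). The protease Ctsd had 87.7, 137 and 139 CPM in Ctrl and 99.0 CPM in EpPT1 1, but 225 to 388 CPM in the other exposed libraries (0.98 ± 0.27), while the membrane protein Lamp2 was lower by −0.47 ± 0.14. Proteasome subunits had 4 of 37 higher, 5 lower and a median of 0.01, the assembly chaperone Psmd5 being at −0.55 ± 0.15. Cholesterol synthesis genes had 8 of 25 higher and 3 lower (32.0% and 12.0%, median 0.17, and 0.12 with the trend removed). Their median ran from 0.014 without Ctrl 2 to 0.38 without Ctrl 1. Among these was Scap, the sterol sensor that escorts SREBP, at 0.71 ± 0.19 (0.15 ± 0.15 with the trend removed). Of 30 glycolysis and HIF target genes 2 were higher and 1 lower, and of 19 Yap and Taz targets 0 were higher and 1 lower, with Crim1 at −0.61 ± 0.17.

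Numbered zinc finger genes, many of which repress transposable elements, formed the largest list. Of 301 tested members 93 lay above 0, and 30 were higher and 82 lower at an unadjusted p under 0.05 (27.2% lower, against 12.4% of all genes). Every exposed library was below every Ctrl library of its state for 62 members (against 5.54% of all genes) and above for 10. Their median was −0.25, −0.21 in the low state and −0.20 in the high state. The transcripts had a median GC content of 44.1%, against 49.4% for all genes, and the median was −0.09 with the GC trend removed. Nuclear long noncoding RNAs, also poor in GC at 42.3%, had a median of −0.30 over 7 tested genes, or 0.01 with the trend removed. Clustered histone genes had 1 of 21 higher and 1 lower and a median of −0.08.

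**Figure D5:**
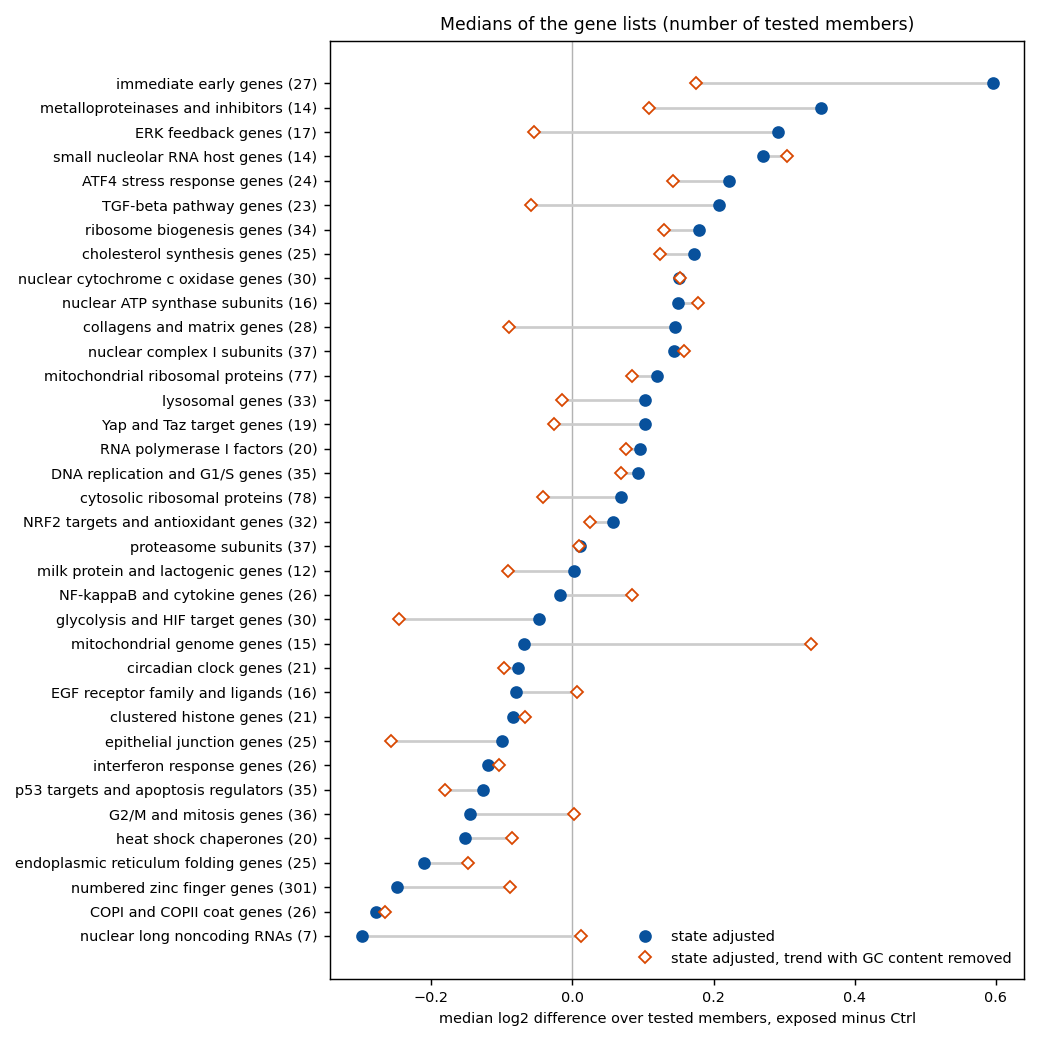
Median log2 difference, exposed minus Ctrl (x axis), of each pathway list with at least 5 tested members (y axis, number tested in brackets), as measured (filled circles) and with the trend with GC content removed (open diamonds). The immediate early genes move from 0.60 to 0.18 and the numbered zinc finger genes from −0.25 to −0.09, while COPI and COPII coat genes (−0.28 and −0.27) and complex I subunits (0.14 and 0.16) have nearly the same median in both versions.

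Taken one label at a time with the same state adjustment, neither exposure had a called gene against Ctrl. EpPT1 had 1834 genes (12.7%) at an unadjusted p under 0.05 with a lowest adjusted p of 0.369, and EpPT2 had 3171 (21.9%) with a lowest adjusted p of 0.143 (edgeR's quasi-likelihood test). DESeq2 called 49 and 769 genes, and limma-voom 0 and 0. These comparisons share the Ctrl libraries, so their values are only set side by side. Psd differed by 1.23 ± 0.18 in EpPT1 and by 1.23 ± 0.18 in EpPT2, and Dusp3 by 0.69 ± 0.15 and 0.70 ± 0.15. Sec23a was at −0.98 ± 0.29 and −1.17 ± 0.29, and Zfp52 at −0.96 ± 0.24 and −1.31 ± 0.25. Hmox1 was at 1.25 ± 0.28 and 1.02 ± 0.28, and Ndufa12 at 1.47 ± 0.42 and 2.23 ± 0.43. EpPT1 holds the library that stood near Ctrl, EpPT1 1. Without EpPT1 1 the called genes numbered 2559 in EpPT1 and 2724 in EpPT2, though EpPT2 does not hold that library. Both labels share the spread of a joint fit, which counts the alike exposed libraries as separate ones. The cause of the difference between the labels was not tested.

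Whether the difference from Ctrl itself depended on the state was tested by an interaction of exposure and state. No gene was called (lowest adjusted p = 0.339 by edgeR's quasi-likelihood test), and 953 genes (6.59%) had an unadjusted p under 0.05. The test compares 3 exposed libraries with 2 Ctrl libraries in the low state and with Ctrl 3 alone in the high state. Within the low state 0 of 14093 tested genes were called, with 587 of them at an unadjusted p under 0.05. Within the high state 5496 were called, where the spread comes only from 3 exposed libraries that were unusually alike and Ctrl 3 is assumed to vary as they do. Without the state covariate 0 genes were called and 1842 had an unadjusted p under 0.05. Psd then differed by 1.42 ± 0.53, against 1.23 ± 0.15 with it.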

How the data were processed

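Expression in 9 HC11 libraries was taken from the authors' deposited table of whole-number counts per gene, in which each column name matches 1 library's label. Bowtie 0.12.2 and build mm8 were used, per the submitters' processing notes, but gene coordinates in the table equal GENCODE M21 (GRCm38) for 53499 of 54409 shared gene IDs (98.3%), so coordinates here are GRCm38. The counter and its strand setting were not given in the sources used here. Depth per library bounds the precision, and a count of 0 allows up to 3 counts, 0.174 to 0.206 CPM by library, for counting error only.

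The counts were scaled by TMM and filtered with filterByExpr at its defaults, and edgeR 4.0.16 (R 4.3.3) made 1 quasi-likelihood fit over all libraries with exposure and state as terms (6 residual degrees of freedom), two-sided tests and Benjamini-Hochberg adjustment at 0.05. The biological coefficient of variation was 22.3%. EpPT1 and EpPT2 were fitted as separate levels, and the interaction of exposure and state in a further fit. The gene test was tested on simulated counts for 13957 genes with 200 changed: 82% of 4-fold and 53% of 2-fold changes were found, with 3.57% false calls. Of the unchanged genes in those counts, 4.89% had an unadjusted p under 0.05, against 25.9% of all genes tested in the libraries. Whether these rates hold for the libraries, with their GC trend and alike pairs, was not tested.

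The comparison, the gene lists and the rules were chosen with earlier results of these data known. The text names genes past the test with a mean of at least 5 CPM and no overlap of groups within either state, predicted genes, pseudogenes, ribosomal protein genes and mitochondrial genes left out. Since 1 passed, the smallest p filled each direction up to 8. Added were at most 2 members per list with the smallest p, and, whatever their values, Krt8, Cox4i1, mt-Co1, Csn2, Per1, Mki67, Cdkn1a, Egr1, Fos and Hmox1; 2 genes under this rule are not reported here.

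GC content is that of the longest GENCODE M21 transcript. To remove its trend, a spline with 5 degrees of freedom was fitted per library and used as an offset (13 tested genes had no value). Further alternatives were DESeq2 size factors, no filter, 5 CPM in 3 libraries, DESeq2 1.42.0, limma-voom (limma 3.58.1), the replicate number as a block, glmTreat (fold 1.2), no state, the mitochondrial share as a covariate, mitochondrial genes left out, each state alone and each library left out. Added after seeing the data were the GC trend removed without EpPT1 1, and alike exposed libraries summed.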

Additional observations from a re-analysis of the deposited data

Results flagged for a closer look

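In the 6 exposed libraries, 78 values were checked for a library that stands far from the other 5, and 17 did, all of them in EpPT1 1; chance flags about 1 in 20 groups, and the genes checked share libraries and are not independent. The slope of log2 expression on GC content was −0.35 per 10 percentage points in EpPT1 1 and 0.18 to 0.37 in the other exposed libraries. EpPT1 1 was the lowest exposed library for Zfp628 (13.7 CPM), Armc5 (14.3 CPM), the AP-1 subunit Jund (31.0 CPM), Atf4 (149 CPM), the stress kinase Plk3 (21.3 CPM), Ndufa3 (26.2 CPM), Atp5d (87.4 CPM), Scap (41.5 CPM), Taf1c (7.62 CPM), Epb41l4aos (18.9 CPM), Rela (96.0 CPM), Ifitm2 (44.7 CPM) and Crb3 (10.1 CPM). It was the highest for Zfp52 (14.9 CPM), Pcmtd1 (53.7 CPM) and Ndc80 (89.7 CPM). For each of these genes EpPT1 1 lay on the side of the Ctrl libraries. Whether the library holds exposed cells as labelled was not tested.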

How the results depend on the processing

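Psd was the 1 gene called, all of it higher, and stayed so with DESeq2 size factors, the filter of 5 CPM and mitochondrial genes left out. The number of genes called in all, higher and lower, was 1774, 1155 and 619 without a filter (28724 genes tested), 1377, 889 and 488 with DESeq2, 5496, 2790 and 2706 in the high state alone, and 1856, 817 and 1039 with the GC trend removed and EpPT1 1 left out. It was 0 in all and 0 higher with limma-voom, glmTreat, no state covariate, the mitochondrial share as covariate, the GC trend removed, the low state alone and alike exposed libraries summed. Leaving out 1 library at a time gave 0 to 4559 called genes, 0 to 2297 higher and 0 to 2262 lower, and 1522 to 6090 at an unadjusted p under 0.05, against 3752. For EpPT1 the count of 0 became 490 without a filter, 49 with DESeq2 and 0 to 2559 without single libraries, and for EpPT2 1379, 769 and 0 to 2724. The cause of these shifts was not tested.

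Same-numbered libraries of different groups had correlations of −0.64 to 0.73, with group means removed but not the state. All libraries numbered 1 were in the low state and all numbered 3 in the high state. These correlations therefore cannot show whether the replicate numbers pair the libraries, and a batch by replicate number cannot be told apart from much of the state. With the replicate number as a block, 0 genes were called, 0 higher, with 3012 at an unadjusted p under 0.05 and a lowest adjusted p of 0.154 by edgeR.

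Of 75 named genes 4 changed sign. Cdkn1a was at −0.14 with the GC trend removed, −0.34 in the high state, −0.10 (without Ctrl 1) to 0.44 with single libraries left out, and −0.15 with the GC trend removed and EpPT1 1 left out. Mki67 was at −0.083 in the low state, −0.0056 without EpPT1 1 and −0.094 (without Ctrl 3) to 0.22 over all libraries left out singly. Cox4i1 was at 0.016 in the low state and 0.0057 without Ctrl 3. Krt8, at 0 in the fit of all libraries, was at 0.016 without a filter, 0.00865 with 5 CPM, 0.021 with limma-voom, 0.031 with the block, 2.1e-05 without mitochondrial genes, 0.14 in the low state, 0.11 without Ctrl 2, 0.13 without Ctrl 3, 0.033 without EpPT2 3 (from −0.16 over single libraries) and 0.029 with alike libraries summed. Of 36 list medians, 14 kept their sign under every setting, among them immediate early, ATF4, COPI and COPII coat, complex I and numbered zinc finger genes. Ctrl 3 is the only Ctrl library of the high state throughout. Without Ctrl 1 or Ctrl 2 the low state also has 1, assumed to vary like the others, and without Ctrl 3 the comparison rests on the low state alone.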
